A study of Mus musculus with 18 samples.

Results

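Strong H2A.Z regions are the highest-scoring stretches of chromatin called for H2A.Z, a variant of histone H2A, in cultured dermal fibroblasts from wild-type newborn mice (female, 129/S6, primary, passages 0 to 1). They were chosen as the regions of the deposited broad-region list that lie on the 19 autosomes and carry a score of 5 or more. The rule gave 8561 of 43669 autosomal regions (19.6%), and the list holds 45394 regions over all chromosomes. Scores of the chosen regions ran from 5 to 44 with a median of 6, and the remaining 35108 regions, called weaker here, scored 1 to 4. Just inside the threshold stood the 14000-base region over the start of Meis2 (score 5), and just outside it the 16800-base region over the start of Skida1 (score 4).

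The other libraries came from a different cell: a male 129/S6 dermal fibroblast line immortalized with SV40 (passages 20 to 30), labelled as a double knockout of macroH2A1 and macroH2A2 that carries a macroH2A2-GFP transgene inducible with doxycycline. In that line macroH2A2-GFP was profiled by native ChIP-seq, 1 library per condition, without doxycycline (0h), after 6h, 24h or 5d of 0.5 ug/ml doxycycline, after 24h with 0.5 uM flavopiridol (a CDK9 inhibitor that blocks transcription elongation) over the last 18h, and after 6h or 24h of doxycycline that followed 10 days of 5 uM GSK126 (an inhibitor of the histone methyltransferase Ezh2). Poly(A) RNA of the line was sequenced in 3 biological replicates before doxycycline and after 6h and 24h of it, at 29338093 to 37793178 counts over genes per library. The H2A.Z profile is that of primary cells and not of the cells that received macroH2A2, and the 2 kinds of cell also differ in sex, genotype and passage. Read depth of the ChIP libraries is not given in the sources used here. The cell in which H2A.Z was profiled has no RNA library here, so its labelled type was checked by H2A.Z at gene starts: 16 of 20 fibroblast marker genes had an H2A.Z region there (4 strong, 12 weaker), against 0 of 8 macrophage, 1 of 8 endothelial and 4 of 10 keratinocyte markers, the last all weaker. Over all protein-coding autosomal genes, 33.1% had a strong and 26.5% a weaker region at the start. By strong regions alone the fibroblast markers (20%) lay below the 33.1%, so this check bears little on the labelled type. H2A.Z at a start is no marker of cell type by itself, since Pparg and Pmel, genes of adipocytes and melanocytes, had strong regions at their starts. In the RNA of the line, the median 0h level was 189 CPM (counts of a gene scaled to its library's total) over the fibroblast markers, 0.0400 over the keratinocyte, 0.0792 over the endothelial and 0.0495 over the macrophage markers. Single members lay far from these medians. Of the fibroblast markers, Lum, Fap, Mmp2 and Dcn stood at 0.00963, 0.108, 0.210 and 1.84 CPM. Of the others, Krt10, Egfl7 and Cd68 stood at 5.49, 5.74 and 2.27 CPM.

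H2A.Z replaces canonical H2A in the nucleosomes that flank the start sites of active and poised genes and in those of enhancers, where it is placed by the SRCAP and p400 exchange complexes and removed by INO80 and ANP32E. MacroH2A variants carry a large globular domain beyond the histone fold and lie in broad domains of mostly inactive chromatin. The study follows how newly made macroH2A2 is first deposited and then pruned from transcribed chromatin.

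The sequences below are the 250 bases upstream of a listed start inside 4 strong regions, picked by a rule set after the values were seen. Only stretches of a listed promoter inside the region that overlap no listed gene could be picked, and 1 autosome was left out, so that higher-scoring starts such as those of Pard6g, Cerk and Foxn3 are not shown. Of the rest, the best-scoring start is shown and, among hosts of 10 CPM or more, the best-scoring start of each macroH2A2 pattern described later. They are written 5′ to 3′ on the gene's strand from RefSeq (GRCm38.p6), and capitals mark CpG dinucleotides. Gda (guanine deaminase, chr19:21472662-21472911, minus strand, region score 31) had the best-scoring start with such a sequence. Got2 (mitochondrial aspartate aminotransferase, chr8:95888402-95888651, minus strand, region score 15) touched macroH2A2 at 6h and not at 24h or 5d. Cited2 (a coregulator that binds CBP and p300, chr10:17722978-17723227, plus strand, region score 10) touched it at all 3 times. Ddhd1 (a phospholipase A1, chr14:45658144-45658393, minus strand, region score 15) touched it at none of them.
Gda: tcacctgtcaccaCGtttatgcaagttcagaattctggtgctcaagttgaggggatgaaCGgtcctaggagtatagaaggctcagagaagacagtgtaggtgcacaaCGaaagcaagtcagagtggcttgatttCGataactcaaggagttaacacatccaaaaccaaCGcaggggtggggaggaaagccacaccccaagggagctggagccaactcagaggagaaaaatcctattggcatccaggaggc
Got2: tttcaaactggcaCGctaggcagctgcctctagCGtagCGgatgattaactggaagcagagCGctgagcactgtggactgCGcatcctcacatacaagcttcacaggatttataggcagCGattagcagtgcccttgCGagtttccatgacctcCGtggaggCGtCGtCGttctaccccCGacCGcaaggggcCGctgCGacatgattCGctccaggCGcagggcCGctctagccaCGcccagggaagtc
Cited2: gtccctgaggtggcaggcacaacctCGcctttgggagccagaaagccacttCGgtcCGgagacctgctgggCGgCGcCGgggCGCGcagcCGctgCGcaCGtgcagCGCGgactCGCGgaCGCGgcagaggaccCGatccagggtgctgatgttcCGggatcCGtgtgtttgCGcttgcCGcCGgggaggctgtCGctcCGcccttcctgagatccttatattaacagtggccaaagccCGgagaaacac
Ddhd1: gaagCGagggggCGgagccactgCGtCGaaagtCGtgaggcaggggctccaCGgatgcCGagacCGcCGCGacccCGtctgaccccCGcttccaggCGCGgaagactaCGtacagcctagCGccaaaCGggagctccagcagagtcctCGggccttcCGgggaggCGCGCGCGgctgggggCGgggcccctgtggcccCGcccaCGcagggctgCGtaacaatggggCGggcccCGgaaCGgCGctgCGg
The stretches before Ddhd1, Cited2 and Got2 held 32, 26 and 19 CpG, and that before Gda held 5. The letters GGGCGG, read on either strand, occurred 4 times before Ddhd1, 2 times before Cited2 and 0 times before Gda and Got2.

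Strong H2A.Z regions were narrow and lay mostly at the starts of protein-coding genes. Their median width was 2000 bases (200 to 14000), against 4400 bases for weaker regions, and together they covered 19.05 Mb. Of the 8561, 5861 lay within 1 kb of the start of a protein-coding gene (68.5%, exact 95% interval 67.5 to 69.4%, counting error over regions only) and 5479 had a start inside them (64.0%). Only 14.6% of weaker regions (5116 of 35108) lay that close to a start. The 2700 strong regions elsewhere had a median distance of 21.1 kb to the nearest start, and 389 of them (14.4%) were over 100 kb away, against 44.8% of the weaker regions elsewhere. Of these 2700, 1058 lay between genes, 772 inside a protein-coding gene, 418 at the start of a gene of another type and 452 at a further listed start of a protein-coding gene, so that the last group (16.7%) is elsewhere only by the main gene start.

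Among strong start regions, 1002 (17.1%) held the starts of 2 or more genes, and 692 (11.8%) held starts on opposite strands, against 5.12% of weaker start regions. The highest score of the list belonged to a region of only 200 bases, chr11:62551201-62551400, just inside Ubb, a polyubiquitin gene whose repeated units resemble each other, so that reads there are placed with less certainty. The next were regions 8.89 kb from the start of Sp8 (score 31, chr12:118836601-118837400), a transcription factor of limb outgrowth, at the start of Gda (31) and inside Tekt4, a tektin of cilia and flagella (29, chr17:25474401-25474800). Sorcs1, a sorting receptor, and Tmem254a had strong start regions of score 22 and 23 with host RNA at 0.0102 and 0 CPM, the latter a gene with near-identical copies whose counts are uncertain. The widest strong regions at starts covered those of Meis2, a TALE homeobox factor (14000 bases, chr2:116058601-116072600), of the ETS factor Etv1 (10200 bases), of Rsrc1, an SR-related splicing protein (9600 bases), and of Pdgfra, the PDGF receptor alpha that marks fibroblasts (9400 bases, chr5:75147801-75157200).

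Genes with a strong H2A.Z region at the start were mostly well expressed in the knockout line. Of 6843 such host genes, 6767 had RNA counts, and their median at 0h was 29.9 CPM, against 14.5 CPM for hosts of weaker regions, 0 CPM for genes with neither and 2.23 CPM for all protein-coding autosomal genes. The host median of each of the 3 libraries varied by an SD of 0.177 CPM. By 0h level, 71.3% of the hosts were high (10 CPM or more), 15.1% medium (1 to 10), 5.48% low (0.1 to 1) and 8.05% silent (under 0.1). Read the other way over genes of known strand, 57.3% of the high genes and 6.19% of the silent genes had a strong region at the start. CPM is not divided by gene length, so these levels place a gene within a library and rank genes only roughly. Within the strong regions a higher score did not go with a higher host level. The median was 34.0 CPM for hosts of score 5, 31.0 for 6 to 7, 27.2 for 8 to 9 and 18.9 for 10 or more. Below the threshold it was lower, at 0.0705 CPM for score 1 to 2 and 26.8 for 3 to 4. The hosts with the highest counts were Eef1a1, which delivers aminoacyl-tRNA to the ribosome, the chaperone Hsp90ab1, the galectin Lgals1, the poly(A)-binding protein Pabpc1 and the ribosomal protein Rpl4. Eef1a1 stood at 5210, 5423 and 5675 CPM at 0h and has near-identical processed copies, so its counts are uncertain.

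By role, strong regions were frequent at genes of chromatin and growth and infrequent at genes that mark cell types, beside 33.1% of all protein-coding autosomal genes. The lists were not matched for RNA level, whose part in these counts was not tested. Strong regions stood at 57.3% of high genes of known strand. They stood at 13 of 19 genes of H2A.Z and its exchange factors (Znhit1 and Vps72 of SRCAP, Kat5 and Trrap of p400, Ino80, and the remover Anp32e among them), and the other 6 had weaker regions. They stood at 17 of 27 Polycomb genes, among them the PRC2 subunits Ezh2, Suz12 and Eed, and at 22 of 36 ribosomal protein genes and 16 of 30 cell cycle genes. They stood at 15 of 45 developmental transcription factors, 7 of 22 cholesterol biosynthesis genes, 6 of 19 p53 targets, 6 of 28 immediate early and AP-1 genes and 4 of 18 clock genes. Of the 20 fibroblast markers the 4 were Pdgfra, S100a4, Prrx2 and Twist1, while the collagen genes Col1a1 and Col1a2, at 3237 and 1770 CPM, had weaker regions of score 2 and 3. No strong region stood at any of 10 keratinocyte or 8 macrophage markers, and 1 of 8 endothelial (Kdr) and 1 of 8 muscle and adipocyte markers (Pparg) had one.

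The promoters shared a base composition that the rule did not use. Over the 300 bases around a start (250 before, 50 after), the 6579 RefSeq promoters inside strong regions had a median of 22 CpG, against 19 inside weaker regions, 4 outside H2A.Z regions and 14 over all 20085. The ratio of observed to expected CpG had medians of 0.80, 0.72 and 0.22 in the first 3 groups. The letters CCGGAAG, a core bound by ETS factors, were in 20.6% of strong, 14.4% of weaker and 3.57% of the other promoters on either strand (11.9% of all). GGGCGG, the GC box, was in 67.3%, 61.2% and 22.8% (47.0% of all). TATAAA ran the other way, at 5.38%, 7.99% and 21.3% (12.7% of all), while CCAAT was in 38.0%, 38.4% and 38.0% (38.1% of all). The contrast in CpG was also seen within classes of level: promoters of silent genes had a median of 16 CpG inside strong regions and 3 outside H2A.Z regions, and promoters of high genes 24 and 7. These matches describe letters in a window and show no binding.

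Strong H2A.Z regions at starts touched macroH2A2 regions most often at 6h and less often at each later time. A region touches when it shares at least 1 base with a macroH2A2 region. The share of the 5861 was 7.68% at 0h (95% interval 7.01 to 8.39%), 34.9% at 6h (33.7 to 36.2%), 20.0% at 24h (18.9 to 21.0%) and 11.1% at 5d (10.3 to 11.9%). MacroH2A2 regions covered 15.4%, 14.7% and 14.2% of the autosomes at 6h, 24h and 5d, so the covered share fell far less than the share of start regions touched. The number of macroH2A2 regions on the autosomes also differed, at 61465, 44393 and 47942, and its part in the shares touched was not tested. At 0h, where no doxycycline was given, regions covered 8.15% of the autosomes. Of the 2700 strong regions elsewhere 16.2%, 43.0%, 33.9% and 24.1% touched at 0h, 6h, 24h and 5d. With 1 library per condition none of these differences has a replicate check, and the intervals cover counting error only. Of the strong regions elsewhere, those between genes touched at 50.1%, 47.7% and 35.8% at 6h, 24h and 5d and those inside genes at 39.1%, 23.4% and 15.5%, while those at a further listed start were near the main starts at 33.0%, 17.5% and 11.9%. The order 6h over 24h over 5d held on each of the 19 autosomes at starts and elsewhere, though chromosomes share a library's depth and calling and are not replicates. Weaker start regions, which are wider, touched at 46.1%, 38.5% and 31.3%, and weaker regions elsewhere at 30.9%, 31.0% and 29.9%.

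**Figure D1:**
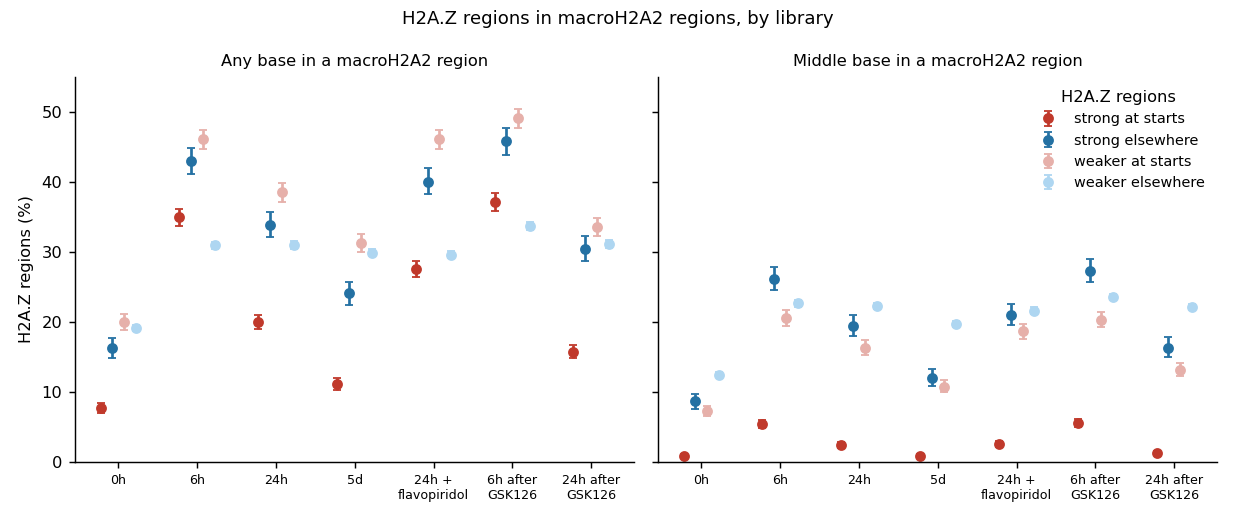
Percent of H2A.Z regions with any base (left) or the middle base (right) inside a macroH2A2 region, for each macroH2A2-GFP library on the x axis; points are shares, bars exact 95% intervals, colours the 4 groups of H2A.Z regions. Strong regions at starts lie lowest in every library by the middle base, from 0.802% at 0h to 5.55% at 6h after GSK126.

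The middle of strong start regions was rarely inside a macroH2A2 region. At 6h the middle base was inside for 5.39% of the start regions (316 of 5861), while 31.3% of positions 3 kb before it and 31.2% of positions 3 kb after it were inside, as were 24.5% and 25.0% of those 50 kb away. At 24h the values were 2.41% in the middle and 20.6% and 20.8% at 3 kb, and at 5d 0.887% against 15.3% and 15.4%. A dip was already there at 0h, before doxycycline, at 0.802% in the middle and 10.2% and 9.88% at 3 kb. The gap between middle and 3 kb was wider at 6h, a difference that was not tested. At 6h the 3 kb positions lay above those at 50 kb, and at 5d they lay below them (16.5% on both sides). Elsewhere the dip was shallower, at 26.1% in the middle and 34.3% and 35.1% at 3 kb at 6h, and 11.96% against 26.6% and 27.0% at 5d.

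**Figure D2:**
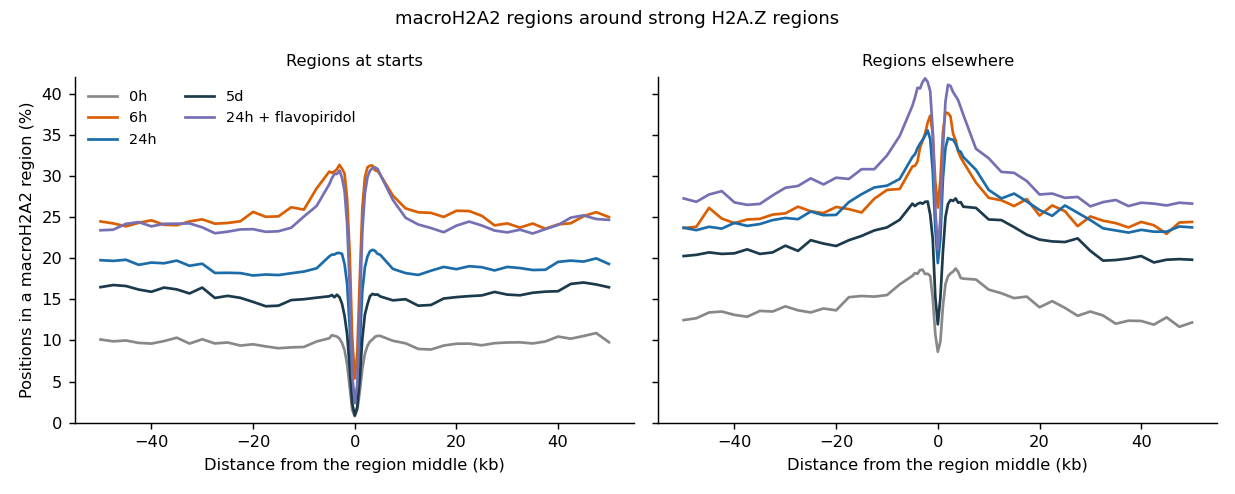
Percent of positions inside a macroH2A2 region against the distance in kb from the middle of strong H2A.Z regions at starts (left, n = 5861) and elsewhere (right, n = 2700), 1 line for each of 5 libraries (those after GSK126 are not drawn). Each line of the left panel drops to between 0.802% (0h) and 5.39% (6h) in the middle, and the 6h line and the line of 24h with flavopiridol run together at 3 kb.

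Most touches at starts were at an edge. Of the 2048 start regions touched at 6h, 1597 (78.0%) had 1 end in a macroH2A2 region and 137 (6.69%) lay wholly inside, with a median of 27.3% of the touched region covered. The starts printed above show the same: at 6h macroH2A2 covered 400 of 1800 bases of the Got2 region and 200 of 3400 of the Cited2 region. Of the 1160 touched elsewhere at 6h, 596 (51.4%) lay wholly inside. Matn2, a matrilin of the extracellular matrix, was an exception among the named starts: its 1200-base region (chr15:34306401-34307600, score 16) was wholly covered at 6h and uncovered in each of the 6 other libraries. The region of Cerk, ceramide kinase, (chr15:86184601-86186800, score 12) was covered over 9.09% of its bases at 0h, 45.5% at 6h, 36.4% at 24h and 9.09% at 5d. That of Foxn3, a forkhead factor, (score 11) went from 16.7% at 0h over 44.4% at 6h to 16.7% and 22.2%. Among the regions elsewhere, that inside Tekt4 was uncovered at 0h and wholly covered in all 6 other libraries. Those near Sp8, Tfap2b, Pth1r, Lingo1 and Ccdc177 were uncovered in all 7. The regions of Pth1r and Lingo1 lay at a further listed start, so they are elsewhere only by the main start.

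Followed one by one, 3551 of the start regions (60.6%) touched macroH2A2 at none of 6h, 24h and 5d, 1057 (18.0%) at 6h only, 429 at 6h and 24h and 509 (8.68%) at all 3 times. Of the 509, 288 (56.6%) also touched a region of the 0h library, against 41 of the 1057 (3.88%). Among the named starts, Pard6g (a polarity protein), Cerk, Slc25a35 (a mitochondrial carrier), Foxn3 and Mdga1 (a cell-surface adhesion protein) touched at all 3 times, and Cerk, Slc25a35 and Foxn3 at 0h as well. These touches were partial: at 24h they covered 9.09% of the Pard6g region, 36.4% of Cerk, 25% of Slc25a35, 16.7% of Foxn3 and 6.25% of Mdga1. Pgap6, Matn2, BC055324, Cpne2 and Spata5l1 touched at 6h only. The median 0h level of the host was 43.1 CPM for the regions touched at 6h only, 28.6 CPM for those touched at none and 22.6 CPM for those touched at all 3 times. Elsewhere, 1313 of 2700 (48.6%) were touched at none of the 3 times and 488 (18.1%) at all 3.

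The share touched at 24h was higher with flavopiridol and lower after GSK126. With flavopiridol, 27.5% of strong start regions touched (26.4 to 28.7%), against 20.0% at 24h without it, and 40.1% against 33.9% elsewhere. The start share was higher on 19 of 19 autosomes. By the middle base there was little between them at starts, 2.49% (2.11 to 2.92%) against 2.41% (2.03 to 2.83%), while 3 kb before the middle 30.6% of positions were inside with flavopiridol and 20.6% without. Of the 1110 start regions touched at 6h and not at 24h, 412 (37.1%) were touched at 24h with flavopiridol and 146 (13.2%) at 24h after GSK126. Among the named 6h-only regions, those of Cpne2 and Spata5l1 touched with flavopiridol, at 10.0% and 11.1% of their bases, and those of Pgap6, Matn2 and BC055324 did not. After GSK126 the start share was 37.1% at 6h (35.9 to 38.4%) and 15.7% at 24h (14.8 to 16.7%), the latter lower than at 24h without it on 18 of 19 autosomes. Coverage of the autosomes was 15.5% with flavopiridol and 13.6% at 24h after GSK126, against 14.7% at 24h. The autosomal macroH2A2 regions numbered 43448, 45316 and 44393 in these libraries, and 78902 at 6h after GSK126.

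Within the strong regions, a higher H2A.Z score went with a smaller share touched. At 6h the share of start regions was 42.5% at score 5, 35.9% at 6, 33.2% at 7, 28.4% at 8 to 9, 27.7% at 10 to 12 and 11.5% at 13 or more (13 of the 113 highest). At 24h it went from 26.3% to 9.73% and at 5d from 15.7% to 3.54%, and the 0h library had the same order, from 10.8% to 1.77%. Width moved with score: the median fell from 2800 bases at score 5 to 1400 at 13 or more, and its part in the result was not tested. The order did not extend to the weakest regions, since only 22.5% of start regions of score 1 touched at 6h.

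**Figure D3:**
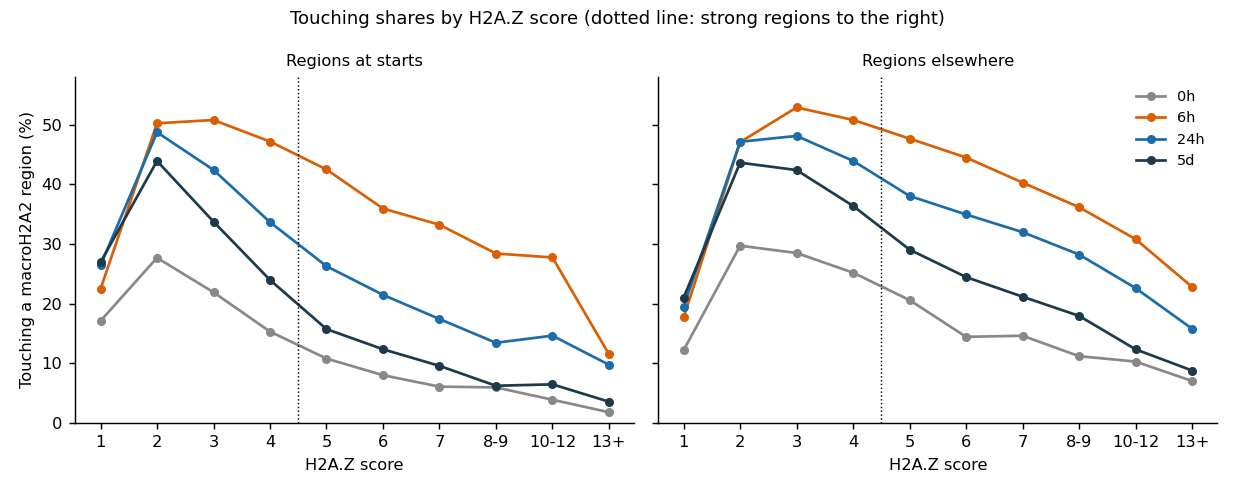
Percent of H2A.Z regions touching a macroH2A2 region (y) against the H2A.Z score (x), at starts (left) and elsewhere (right), for 4 libraries; the dotted line separates weaker from strong regions. To its right each line ends lower than it begins, at 6h from 42.5% to 11.5% at starts.

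The chromosomes differed widely. At 6h, 68.8%, 68.6% and 58.6% of strong start regions touched on chromosomes 15, 17 and 8, and 9.80%, 10.0% and 13.1% on chromosomes 7, 13 and 14. The first 3 were also high at 0h, at 21.5%, 26.8% and 20.2%, against 0.436% on chromosome 7. Without chromosomes 8, 15 and 17, a set chosen after its values were seen, the start shares were 29.6%, 17.2% and 9.13% at 6h, 24h and 5d. The line is immortalized, and copy number was not measured here, so its part in these differences was not tested.

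The share touched was lower at 24h than at 6h at hosts with RNA, most at high hosts, and was not lower at silent ones. Strong start regions of high hosts (n = 4139) touched at 37.1%, 17.8% and 9.16% at 6h, 24h and 5d, those of medium hosts at 35.6%, 25.7% and 15.4%, those of low hosts at 33.9%, 29.8% and 17.6%. Those of silent hosts (n = 475) touched at 18.7% (15.3 to 22.5%), 23.4% (19.6 to 27.4%) and 16.4% (13.2 to 20.1%). With flavopiridol the share was 27.2% at high hosts and 20.8% at silent hosts, above the 24h share at the first and below it at the second, with overlapping intervals for the silent hosts. Windows of 1 kb either side of the start give each gene the same width. By these, starts of high genes with a strong region touched at 34.7%, 18.2% and 10.5%, and starts of high genes with no H2A.Z region at 46.5%, 34.4% and 24.7%. Starts of silent genes touched at 23.8%, 25.3% and 20.3% with a strong region and 13.4%, 20.0% and 18.8% with none. High starts thus touched less with strong H2A.Z than without it at all 3 times, with intervals that do not overlap, and silent starts touched more at 6h. At 0h, before induction, the high starts already stood at 7.62% with strong H2A.Z and 18.7% without. The difference between high and silent genes in this respect was not tested.

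**Figure D4:**
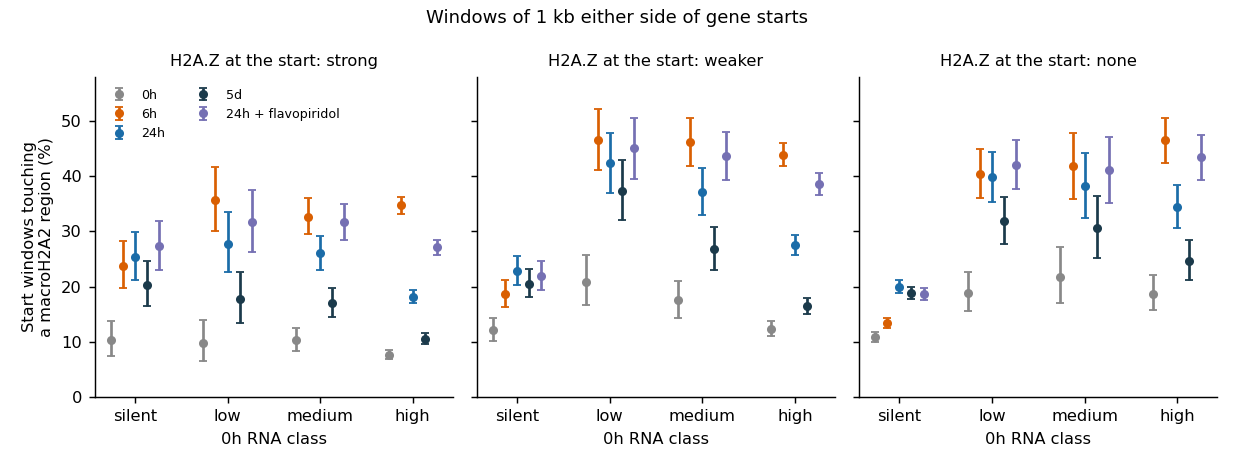
Percent of windows of 1 kb either side of gene starts that touch a macroH2A2 region (y) by 0h RNA class (x), for starts with a strong, a weaker or no H2A.Z region; points are shares, bars exact 95% intervals, colours the libraries. At high genes the 6h share is 34.7% with a strong region and 46.5% with none.

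Promoters in strong regions touched at all 3 times and in those touched at none also differed in their letters. A touch is counted for the region and was mostly at an edge, so the promoter itself need not be covered. CCGGAAG was in 23.3% of the 4232 promoters in strong regions touched at none of the 3 times, 19.8% of the 1157 in regions touched at 6h only and 9.81% of the 469 in regions touched at all 3, while their CpG medians were 22, 24 and 22. Of the 4 stretches printed above, that of Ddhd1, whose region was touched at none of the 3 times, held CCGGAAG once and the others did not.

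RNA of the hosts was called changed about as often as RNA of all protein-coding autosomal genes, with fewer large changes. Macroh2a2 (H2afy2), the gene of the induced protein, has a strong region at its start (score 9), and its RNA stood at 10.5, 25.3 and 9.61 CPM at 0h, 823, 833 and 805 at 6h and 1741, 1713 and 1727 at 24h. Macroh2a1 RNA stood at 56.8 ± 1.86 CPM (SD, n = 3) at 0h although the gene is labelled as knocked out, and a count over a whole gene does not show whether the deleted part is gone. In edgeR's quasi-likelihood test at an adjusted p under 0.05, 1502 of 6097 tested hosts rose and 1184 fell at 6h, or 44.1%. Over all 13785 genes tested 39% were called (20.8% up, 18.2% down), and over protein-coding autosomal genes 44.2%. At 24h 305 rose and 171 fell (7.81%, against 7.04% of all genes, 4.17% up and 2.87% down), and from 6h to 24h 1126 rose and 1283 fell (39.5%, against 36.1%, 17.4% up and 18.8% down). The count at 24h, 476 in all, fell to 271 when replicate 2 of 0h was left out, and to 316 or 303 when replicate 2 or replicate 3 of 24h was. The 6h and 24h comparisons share the 0h libraries, so their values are given side by side only. Called changes of 1.5-fold or more at 6h were seen in 1.74% of strong hosts, 3.498% of weaker hosts and 7.27% of genes with no H2A.Z region at the start, beside 3.21% of all genes tested and 3.02% of protein-coding autosomal genes. The groups also differ in level, with 0h medians of 29.9, 14.5 and 0 CPM over genes with counts. These medians include genes that were not tested and so do not describe the tested ones. Of the 7847 genes with counts and no H2A.Z region at the start, 6149 were silent, and 1403 were tested. The part of level in the 1.5-fold shares was not tested. These are bulk RNA values, in which fewer cells of a kind and less RNA per cell cannot be told apart, and time in doxycycline and the level of macroH2A2 moved together. The 466 tested hosts whose region touched at all 3 times had 21.7% up and 29.6% down at 6h, and the 3800 hosts whose region touched at none had 26.0% up and 16.1% down, a difference that was not tested. For 746 hosts no test was made, because counts were low or no counts were matched.

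Counts over Macroh2a2 rose at 6h and further at 24h, but do not separate the transgene from the host gene. Leaving it aside, the hosts with the largest increases at 6h were Has2, Wnt11, Arl4d and Fgf2. Arl4d, a small GTPase of the ARF family, stood at 0.807 CPM at 0h, 1.86 at 6h and 1.15 at 24h on average. Has2, the hyaluronan synthase of fibroblasts, stood at 54.1, 56.4 and 53.6 CPM at 0h, 149, 160 and 145 at 6h and 53.1, 53.1 and 54.2 at 24h. The 6h libraries lay above all others, but hosts named by their change were picked for having no such overlap. The log2 change of Has2 was 1.47 ± 0.035 (SE, adjusted p = 1.62e-22, edgeR). Its strong region (score 5) touched macroH2A2 at 6h and not at 24h or 5d. Fgf2, a growth factor, went from 41.9, 39.8 and 38.9 CPM to 89.4, 92.0 and 91.7 and back to 36.1, 35.6 and 35.4. At 24h it was lower than at 0h by a log2 change of -0.17 (adjusted p = 0.00456, edgeR). Its log2 change at 6h was 1.18 ± 0.035 (adjusted p = 1.35e-20, edgeR) and its region touched macroH2A2 in none of the 7 libraries. Tll1, a tolloid-like metalloprotease, rose from 48.5 ± 2.69 to 95.2 ± 4.09 CPM (SD, n = 3) and its region touched in all 6 libraries with doxycycline. Areg, an EGF receptor ligand whose region touched in all 7, rose from 3.57 ± 0.237 to 6.97 ± 0.237 CPM. Wnt11, a Wnt ligand untouched in all 7, rose from 1.47 ± 0.148 to 3.69 ± 0.570 CPM. Of the 6 immediate early and AP-1 hosts 3 rose at 6h and 1 fell, beside 20.8% up and 18.2% down over all genes tested. Their median log2 change was 0.09, beside 0.01 over all genes tested. Egr3 rose from 2.94 ± 0.153 to 5.37 ± 0.286 CPM and Fosl1 by 0.61 ± 0.030 on the log2 scale (adjusted p = 1.98e-15, edgeR).

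Among the hosts with the largest decreases at 6h were Gas1, Dbp, Rspo3 and Chrd, and all 7 sterol hosts fell. Gas1, a membrane protein of growth arrest and Hedgehog signalling, stood at 60.2, 50.9 and 56.6 CPM at 0h, 25.6, 20.7 and 25.6 at 6h and 48.7, 43.0 and 44.0 at 24h. The 6h libraries lay below all others, which the rule for naming it required. The log2 change was -1.22 ± 0.064 (SE, adjusted p = 7.40e-15, edgeR), and the region touched in none of the 7 libraries. At 24h it was still lower than at 0h, with a log2 change of -0.30 (adjusted p = 9.86e-04, edgeR). Dbp, a clock output factor, fell from 5.21 ± 0.564 to 2.73 ± 0.378 CPM and stood at 5.58 ± 0.411 at 24h. Rspo3, which strengthens Wnt signalling, fell from 2.28 ± 0.114 to 1.26 ± 0.138 CPM, and Chrd, which binds BMP ligands, from 2.29 ± 0.158 to 1.28 ± 0.280 CPM. Of the 4 fibroblast marker hosts 3 fell at 6h, beside 18.2% of all genes tested called down. Prrx2, a homeobox factor, fell by 0.69 on the log2 scale, S100a4 by 0.29 and Twist1 by 0.19. Pdgfra stood at 12.01 ± 0.229 CPM at 0h and 11.3 ± 1.35 at 6h. The 7 sterol hosts had a median log2 change of -0.51 at 6h, and all 7 rose again from 6h to 24h, beside 17.4% of all genes tested called up. Acat2, a thiolase at the head of the pathway, went from 82.5 ± 2.18 over 57.4 ± 2.67 to 81.0 ± 2.50 CPM, and the cyclase Lss from 52.3 ± 2.63 over 36.8 ± 0.674 to 51.9 ± 1.68. Of these 7 regions, 4 touched macroH2A2 at 6h, 3 at 24h and 0 at 5d.

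**Figure D5:**
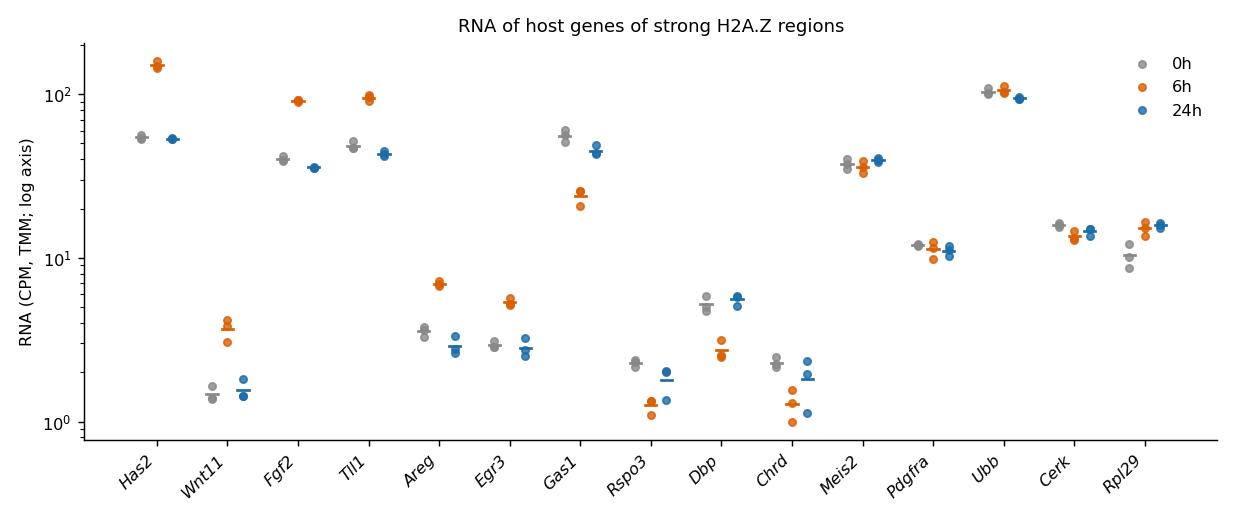
RNA in CPM (log axis) of 15 host genes of strong H2A.Z regions at 0h, 6h and 24h; each point is 1 of 3 replicate libraries and each dash their mean. Has2, Wnt11, Fgf2, Tll1, Areg and Egr3 are higher at 6h than at 0h or 24h and Gas1 is lower, while Rpl29 stays up at 24h.

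Ribosomal protein hosts were the group that was still higher at 24h. Of 22 tested, 15 rose and 0 fell at 6h and 16 rose and 0 fell at 24h. Over all genes tested 20.8% were called up at 6h and 4.17% at 24h. The ribosomal protein hosts had median log2 changes of 0.11 and 0.13, beside 0.01 at 6h over all genes tested. Among those named, Rpl29, Rpl35 and Rpl37 had larger changes at 24h, at log2 0.61, 0.61 and 0.43. Rpl35 stood at 86.2, 97.1 and 113 CPM at 0h, 143, 147 and 160 at 6h and 144, 141 and 166 at 24h. Its 0h libraries lay below all others, which for 24h the rule for naming it required. The log2 change at 24h was 0.61 ± 0.060 (SE, adjusted p = 5.39e-08, edgeR). Rpl29 rose from 10.3 ± 1.74 to 15.8 ± 0.582 CPM at 24h. Ribosomal protein genes have many near-identical pseudogenes, which makes their counts uncertain. Of the 22 regions, 6 touched macroH2A2 at 6h, 2 at 24h and 1 at 5d. Rpl29 and Rpl35 were untouched in all 7 libraries. Of the 13 hosts among H2A.Z genes and exchange factors, 4 rose at 6h and 1 at 24h, beside 20.8% and 4.17% of all genes tested. The 1 at 24h was H2az1 (H2afz), the main H2A.Z gene, which went from 216 ± 2.07 to 238 ± 2.48 CPM. H2az2 (H2afv), the other H2A.Z gene, has a weaker region of score 3 and fell at 6h from 53.4 ± 0.0938 to 41.6 ± 1.46 CPM. Of the 17 Polycomb hosts 2 were called up and 7 down at 6h and 0 at 24h. Over all genes tested 39% were called at 6h and 7.04% at 24h. Ezh2, the target of GSK126, rose by 0.16 ± 0.035 at 6h (adjusted p = 4.11e-04, edgeR). Among genes called lower at 24h, Hic1, a transcriptional repressor, stood at 22.0 ± 0.816 CPM at 0h and 17.2 ± 0.773 at 24h. Ubb, at the region with the highest score, stood at 104 ± 5.07, 105 ± 5.62 and 94.6 ± 1.47 CPM at 0h, 6h and 24h, and its adjusted p for 24h against 0h (0.0200, edgeR) was 0.172 without 0h replicate 1 and 0.0867 without 24h replicate 2.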

How the data were processed

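The regions are 200-base windows joined over gaps of up to 800 bases by SICER 1.1 at a threshold of 0.01, from reads aligned with Bowtie 1.1.2, per the submitters' processing notes and the deposited file names. The score of each region is the authors' deposited value, and what it measures is not given in the sources used here. The running number of each region, a further deposited field, was not used. RNA counts per gene were made by the authors with STAR 2.5.2b, per the submitters' processing notes, and are raw as deposited, and the column of the strand that held at least 96.6% of stranded counts was used. Reads not assigned to a gene (21.2 to 23.1%) were left out.

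Region coordinates are those of GRCm38. Gene starts came from the RefSeq table of GRCm38.p6, and both gene ends counted for the 4208 of 20665 protein-coding autosomal genes without a strand. At a start means within 1 kb. RefSeq genes were matched to counts by symbol (20751) or synonym (394), and 742 were unmatched. RNA was tested with edgeR 4.0.16 (R 4.3.3): TMM, filterByExpr (13785 of 48440 genes kept), quasi-likelihood test over all 9 libraries, Benjamini-Hochberg adjustment over all genes tested, called at 0.05. Intervals are exact Clopper-Pearson. Overlaps were computed in Python 3.11.15 (pandas 2.3.3), and both computations were tested on simulated data. CPM per replicate uses TMM library sizes, while classes and medians over hosts use plain library totals. No test was made between ChIP libraries, since each condition has 1. Input DNA was not used.

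Named regions and genes are the 10 highest-scoring and 5 widest strong regions, the 10 highest-scoring elsewhere and the 5 best of each macroH2A2 pattern. Also named are the hosts with the highest 0h CPM and the 5 highest-scoring start regions with a host under 0.1 CPM. The rest are called hosts with the largest changes and no overlap between groups, and up to 4 hosts per gene list. The regions and the lists were chosen with earlier results of these data known. Alternatives tried were other score and distance limits, stricter macroH2A2 regions, other normalization, test and filter, unstranded counts, a replicate block and leaving out each library. The result of 1 marker list is not reported here.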

Additional observations from a re-analysis of the deposited data

How the results depend on the processing

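The orders 6h over 24h over 5d, flavopiridol over 24h, and 24h after GSK126 under 24h held at starts and elsewhere under every setting run for the shares, while the levels moved. The share at starts, 68.5%, was 72.1% at a score of 6 or more and 62.3% at 4 or more, 64.0% with the start inside the region, 74.1% within 5 kb and also with genes of any type, 73.7% with every promoter-table start and 55.5% with genes of known strand only (the last 2 chosen after seeing the data). The share of start regions touching at 24h, 20.0%, was 17.2% at a score of 6 or more, 23.4% at 4 or more, 2.87% when 50% of the region had to be covered, 11.9% with stricter macroH2A2 regions, 14.7% without members touching a 0h region and 17.2% without chromosomes 8, 15 and 17. Elsewhere, 33.9% became 30.9%, 38.2%, 20.6%, 23.6%, 22.9% and 29.6% under these, 32.0% with the start inside the region and 37.2% with every promoter-table start. The host median of 29.9 CPM was 29.0 with unstranded counts.

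Called hosts at 6h (2686) ranged from 2291 to 2781 over left-out libraries and at 24h against 6h (2409) from 1967 to 2437. At 24h against 0h (476) they ranged from 271 to 573, and were 311 at a score of 6 or more. Of the named genes called, 49 of 58 at 6h, 15 of 21 at 24h and 41 of 55 at 24h against 6h were called under all alternatives, and 0 reversed. Not all of the named genes are hosts of strong regions, H2az2 being 1 that is not. With the replicate block the counts were 2717, 503 and 2436, and it changed no count by over 1.5 times. Same-numbered libraries correlated at -0.02 to 0.04 in their deviations, and 5 of 9 correlated best with their own number, so the numbers were not taken as pairs. Each ChIP condition has 1 library of unknown depth, so depth and condition cannot be told apart there.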
